A study of Mus musculus with 10 samples.

Results

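Transcripts of 10 genes of NF-kB and MyD88 signalling were followed in platelet RNA from P7 mice and from adult mice. They were Rela, Relb, Nfkb1, Nfkbia, Ikbkb, Ikbkg, Chuk, Traf6, Myd88 and Tnfaip3, taken by gene symbol, and each of the 10 had its own row among the 53819 gene symbols counted. The study compared 5 libraries from P7 mice, read here as postnatal day 7 (replicates A, B, C, E and I), with 5 from adult mice (replicates A, B, C, G and H), and the labels give no strain, sex, genotype or treatment for either age and no age in days for the adults. Whether libraries came from separate animals or from pools is not stated by the labels, so p-values measure only how these samples vary, and that spread may be technical. Libraries held 19431863 to 25029931 counts at P7 and 19541997 to 23291269 in adults. Levels below are CPM, counts scaled to a common library total (with TMM factors), and fold changes are P7 over adult from edgeR's quasi-likelihood test, called at a Benjamini-Hochberg adjusted p under 0.05 over all 8198 genes tested.

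NF-kB is a family of dimeric transcription factors that are held in the cytoplasm by inhibitor proteins of the IkB group. Toll-like and interleukin-1 receptors recruit the adaptor MyD88, which acts through IRAK kinases and the ubiquitin ligase TRAF6 on the IKK complex, made of the kinases IKKα (Chuk) and IKKβ (Ikbkb) and the scaffold NEMO (Ikbkg). IKK marks IkBα (Nfkbia) for degradation, which frees dimers such as p65-p50 (Rela and Nfkb1), and IkBα and A20 (Tnfaip3) are induced in turn and end the signal. Platelets have no nucleus and carry transcripts of their parent megakaryocytes, yet they contain proteins of this pathway, and in mouse platelets IKKβ has been described to act on the secretion machinery by phosphorylating SNAP-23.

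The promoters of Tnfaip3, Nfkbia and Rela are printed because Tnfaip3 and Nfkbia encode the feedback inhibitors and Rela is the member with the largest called change. RefSeq start sites of 7 of the 10 members were matched (build GRCm38.p6), and each window runs from 250 bases before the start to 50 after it. Relb, Nfkb1 and Ikbkb had no entry. Capitals mark matches to the 10-base NF-kB consensus motif, searched on both strands.
Tnfaip3, chr10:19015361-19015660, minus strand: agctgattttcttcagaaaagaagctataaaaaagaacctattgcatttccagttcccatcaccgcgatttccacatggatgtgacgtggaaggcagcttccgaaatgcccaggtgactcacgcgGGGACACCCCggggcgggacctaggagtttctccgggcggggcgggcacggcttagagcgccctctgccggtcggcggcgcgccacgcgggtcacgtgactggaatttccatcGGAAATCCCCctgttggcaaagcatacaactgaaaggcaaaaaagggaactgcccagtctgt
Nfkbia, chr12:55492598-55492897, minus strand: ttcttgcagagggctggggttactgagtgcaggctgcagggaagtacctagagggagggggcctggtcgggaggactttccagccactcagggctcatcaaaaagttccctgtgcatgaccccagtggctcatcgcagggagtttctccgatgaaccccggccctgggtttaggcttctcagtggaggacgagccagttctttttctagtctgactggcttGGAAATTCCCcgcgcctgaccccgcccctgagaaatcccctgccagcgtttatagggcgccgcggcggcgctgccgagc
Rela, chr19:5637291-5637590, plus strand: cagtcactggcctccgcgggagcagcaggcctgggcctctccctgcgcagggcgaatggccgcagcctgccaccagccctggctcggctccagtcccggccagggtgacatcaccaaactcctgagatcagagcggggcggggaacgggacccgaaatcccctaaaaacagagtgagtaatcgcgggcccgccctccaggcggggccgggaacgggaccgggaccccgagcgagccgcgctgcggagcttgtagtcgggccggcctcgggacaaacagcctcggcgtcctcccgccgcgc

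In the printed Tnfaip3 window the matches GGGACACCCC and GGAAATCCCC began 125 and 12 bases before the start, and the 1 match of Nfkbia, GGAAATTCCC, began 29 bases before it. The Rela window held no match, and neither did the window of a further Tnfaip3 start in the table, which is not printed. Of the 11 promoter windows of the 7 matched members 2 held the motif, as did 1480 of 32851 windows of the same length in the table (4.51%). A match describes the letters of a window and says nothing of binding.

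Of the 10 members 9 passed the filter on low counts and were tested, and 1 of these rose (Rela) and 1 fell (Chuk) at P7. Across all genes tested 13.8% were called higher and 13.9% lower, 27.7% in all, so the members' share of calls lay near that of all genes. The median log2 fold change of the 9 was 0.13, beside 0.05 over all genes tested. Rela and Chuk were also the members tested whose groups did not overlap, which held for 19.8% of all genes tested (10.1% with P7 higher and 9.76% with P7 lower). Tnfaip3, with 2 counts over the 5 P7 libraries and 52 over the 5 adult libraries, did not pass the filter.

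**Figure D1:**
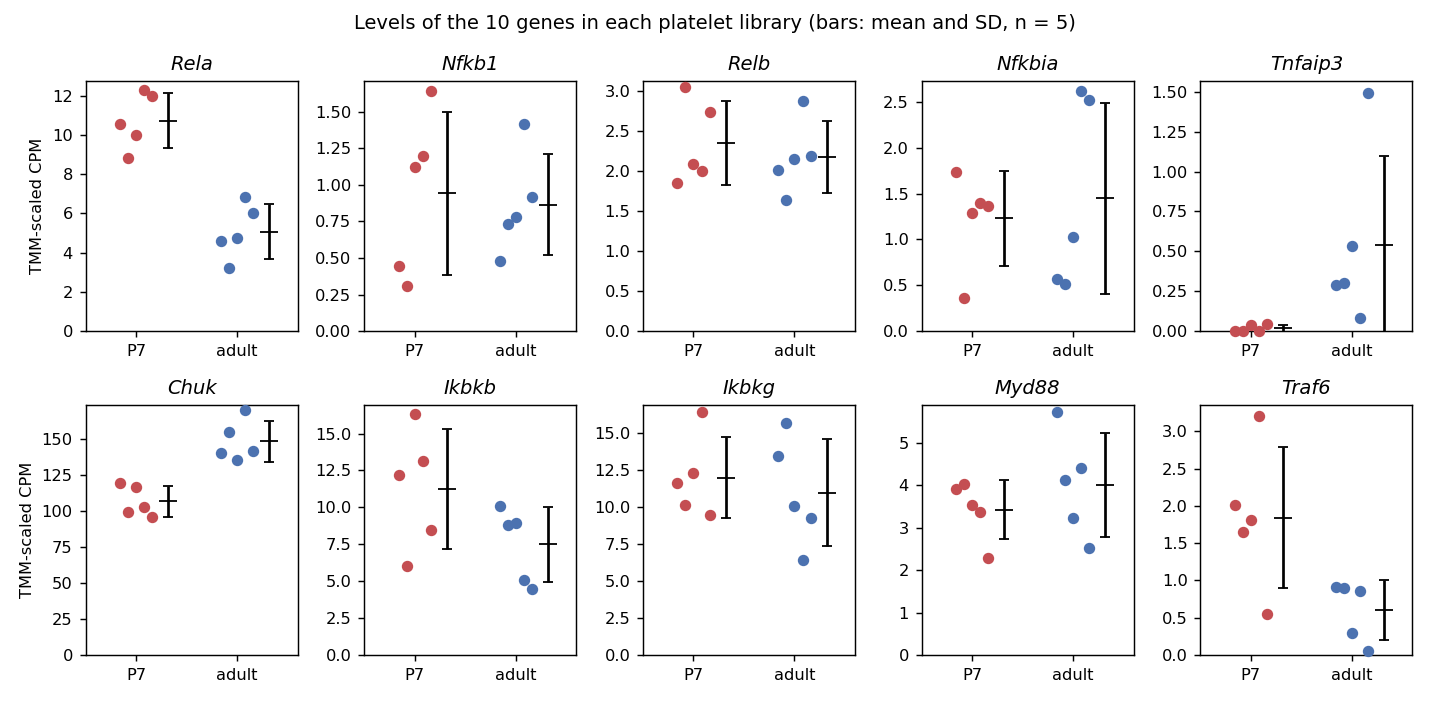
Level of each of the 10 genes, in TMM-scaled CPM on a linear axis from 0, with 1 point per library, P7 in red and adult in blue, and mean and SD in black (n = 5 each; the bar of Tnfaip3 in adults is cut at 0). P7 and adult points do not overlap for Rela, Chuk and Tnfaip3, and they overlap for the other 7 genes.

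Rela, which encodes the transactivating subunit p65, had 10.5, 8.83, 10.01, 12.3 and 12.0 CPM in P7 A, B, C, E and I, against 4.58, 3.22, 4.73, 6.81 and 6.02 CPM in adult A, B, C, G and H. The lowest P7 library lay above the highest adult library. Rela averaged 10.7 ± 1.42 CPM in P7 libraries and 5.07 ± 1.39 CPM in adult libraries (SD, n = 5 each) and rose 2.11-fold, by 1.08 ± 0.23 on the log2 scale (SE, edgeR quasi-likelihood adjusted p = 0.0029). Its longest coding transcript has a GC content of 59.4%, and fold changes over all genes went with GC content (median 52.8% for genes called higher at P7 and 46.1% for genes called lower). With the GC trend of each library removed Rela still rose, by 0.70 ± 0.22 (SE, edgeR adjusted p = 0.0288). In bulk RNA, fewer cells of a type and less RNA per cell cannot be told apart, here or below.

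The partner subunits among the members did not pass the test. Nfkb1, the precursor of p50, had 0.443, 0.310, 1.13, 1.20 and 1.64 CPM in P7 A, B, C, E and I, against 0.477, 0.731, 0.780, 1.41 and 0.918 CPM in adult A, B, C, G and H. P7 A and B were the lowest and P7 I the highest of the 10 libraries, so the adult range lay inside the P7 range. The log2 fold change of Nfkb1 was 0.13 ± 0.49 (SE, edgeR quasi-likelihood adjusted p = 0.87). Relb, which pairs with p52 in the non-canonical branch, had 1.85, 3.05, 2.09, 2.001 and 2.74 CPM in P7 A, B, C, E and I, against 2.005, 1.63, 2.14, 2.87 and 2.18 CPM in adult A, B, C, G and H. These ranges overlapped almost fully, with a log2 fold change for Relb of 0.11 ± 0.28 (SE, edgeR adjusted p = 0.80).

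Tnfaip3, which encodes the ubiquitin-editing enzyme A20, had 0, 0, 1, 0 and 1 counts in P7 A, B, C, E and I, against 6, 7, 11, 2 and 26 counts in adult A, B, C, G and H. In CPM these were at most 0.0456 at P7 and 0.0857 to 1.49 in adults, and a count of 0 allowed up to 0.120 to 0.154 CPM in a library (3 counts of its total). All P7 libraries lay below all adult libraries, but adult G, with 2 counts, was under that limit as well. The summed counts gave a P7 to adult ratio of 0.0350, with an exact 95% interval of 0.00413 to 0.133 that covers counting error only. Adult H held 26 of the 52 adult counts, and without it the ratio was 0.0584 (0.00672 to 0.233). In edgeR's quasi-likelihood test without the filter on low counts, where 5.39% of 20865 genes were called lower at P7 and 11.9% in either direction, Tnfaip3 was called lower (log2 fold change -4.57, edgeR adjusted p = 0.00395). Without adult H the log2 fold change in that fit was -3.78 and the call was lost (edgeR adjusted p = 0.0582, where the range over the 10 libraries left out in turn was 0.00118 to 0.0582).

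Nfkbia, the gene of IkBα, had 1.73, 0.362, 1.29, 1.40 and 1.37 CPM in P7 A, B, C, E and I, against 0.573, 0.516, 1.02, 2.61 and 2.52 CPM in adult A, B, C, G and H. Adult G and H were the highest of the 10 libraries and P7 B the lowest, while the other 3 adult libraries lay below every P7 library but B. Its log2 fold change was -0.23 ± 0.52 (SE, edgeR quasi-likelihood adjusted p = 0.78). Of the feedback inhibitors with the motif printed in capitals, Tnfaip3 was near 0 at P7, while Nfkbia averaged 1.23 ± 0.514 CPM in P7 libraries and 1.45 ± 1.04 CPM in adult libraries (SD, n = 5 each).

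Chuk, which encodes IKKα, was the most abundant member and fell at P7. It had 119.7, 99.6, 117, 103 and 95.8 CPM in P7 A, B, C, E and I, against 141, 155, 135, 170 and 142 CPM in adult A, B, C, G and H, and the groups did not overlap. Its mean was 107 ± 10.8 CPM in P7 libraries and 149 ± 14.1 CPM in adult libraries (SD, n = 5 each), and it fell by 0.47 ± 0.13 on the log2 scale (SE, edgeR quasi-likelihood adjusted p = 0.0165). The Chuk transcript has a GC content of 41.3%. With the GC trend removed its log2 fold change was -0.17 ± 0.14 (SE) and did not pass (edgeR adjusted p = 0.40).

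Ikbkb, which encodes IKKβ, had 12.2, 6.04, 16.4, 13.1 and 8.49 CPM in P7 A, B, C, E and I, against 10.1, 8.81, 8.97, 5.10 and 4.48 CPM in adult A, B, C, G and H. P7 A, C and E lay above every adult library, while P7 B and I lay within the adult range. Its log2 fold change was 0.59 ± 0.30 (SE, edgeR quasi-likelihood adjusted p = 0.16). Ikbkg, the gene of the scaffold NEMO, had 11.6, 10.1, 12.3, 16.4 and 9.45 CPM in P7 A, B, C, E and I, against 13.5, 15.6, 10.1, 6.43 and 9.24 CPM in adult A, B, C, G and H. The ranges overlapped and the log2 fold change of Ikbkg was 0.13 ± 0.25 (SE, edgeR adjusted p = 0.74). Ikbkg shares 418 of its 8110 annotated exon bases with G6pdx on the opposite strand, the gene of glucose-6-phosphate dehydrogenase, which stood at 224 ± 18.5 CPM in P7 libraries and 154 ± 24.3 CPM in adult libraries (SD, n = 5 each). The sources used here do not give the strand setting of the counting, so the values of Ikbkg are uncertain.

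Myd88, the adaptor itself, had 3.90, 4.03, 3.54, 3.36 and 2.28 CPM in P7 A, B, C, E and I, against 5.73, 4.13, 3.22, 4.41 and 2.52 CPM in adult A, B, C, G and H. Adult A was the highest library and P7 I the lowest, and the log2 fold change of Myd88 was -0.23 ± 0.27 (SE, edgeR quasi-likelihood adjusted p = 0.57). Of its 2576 annotated exon bases 290 are shared with Acaa1a on the opposite strand, a peroxisomal thiolase gene at 7.95 ± 3.09 CPM in P7 libraries and 4.04 ± 2.18 CPM in adult libraries (SD, n = 5 each), so its values are uncertain too. Traf6, the ubiquitin ligase downstream of MyD88, had 2.01, 1.65, 1.81, 3.20 and 0.548 CPM in P7 A, B, C, E and I, against 0.907, 0.903, 0.292, 0.857 and 0.0574 CPM in adult A, B, C, G and H. P7 A, B, C and E lay above every adult library, and P7 I lay within the adult range. Traf6 missed the threshold narrowly, with a log2 fold change of 1.59 ± 0.57 (SE, edgeR quasi-likelihood adjusted p = 0.0503). It rested on 12 to 80 counts in P7 libraries and 1 to 21 in adult ones, and it passed in 6 of 20 other settings (adjusted p = 0.0235 to 0.15), among them DESeq2 and the fit without P7 I (log2 fold change 1.81, edgeR adjusted p = 0.0235).

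**Figure D2:**
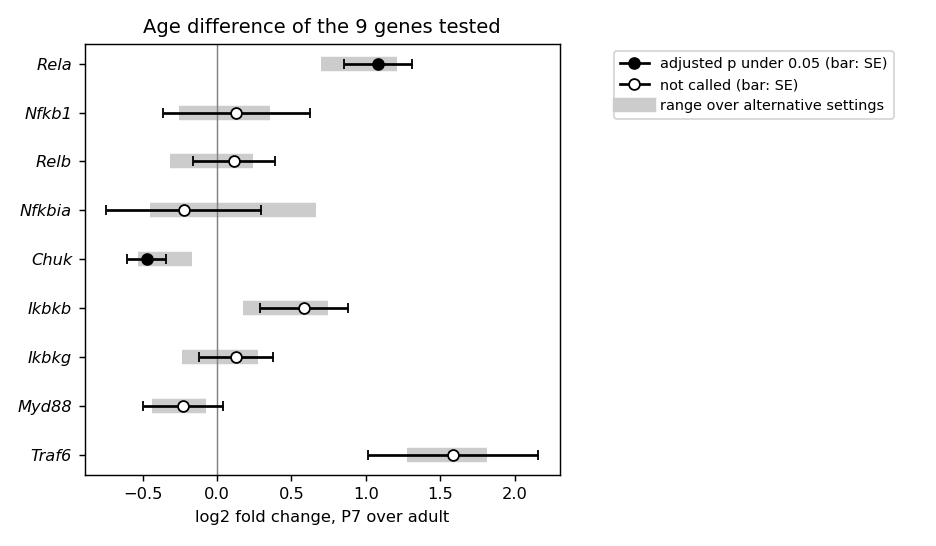
Log2 fold change, P7 over adult, of the 9 members tested, with SE; filled points passed the test and open points did not. Grey bars give the range over the alternative settings, which stays above 0 for Rela (0.70 to 1.21), Ikbkb and Traf6, stays below 0 for Chuk and Myd88, and spans 0 for the other 4 genes.

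Levels between genes were compared per kilobase of the longest coding transcript in GENCODE M21. Chuk stood far above the rest, at 30.5 ± 3.08 CPM per kb for P7 and 42.4 ± 4.03 for adult libraries (SD, n = 5 each). At P7 Rela followed at 3.95 ± 0.523 and Ikbkb at 2.83 ± 1.02, then Myd88 at 1.75 ± 0.353 and Ikbkg at 1.71 ± 0.389, and the SDs of neighbours in this order overlapped. Relb was at 1.06 ± 0.235 CPM per kb and Nfkbia at 0.779 ± 0.326, again within their spread, with Traf6 at 0.299 ± 0.154, Nfkb1 at 0.229 ± 0.135 and Tnfaip3 at 0.00388 ± 0.00533 at the low end. In adults Myd88, Ikbkb, Rela and Ikbkg lay together at 1.57 to 2.04 CPM per kb, within their SDs of each other. Below them in adults came Relb at 0.981 ± 0.203 and Nfkbia at 0.919 ± 0.659 CPM per kb, then Nfkb1 at 0.210 ± 0.0841, Tnfaip3 at 0.122 ± 0.126 and Traf6 at 0.0978 ± 0.0649, with the SDs of neighbours overlapping within each of these 2 sets. Chuk made up 71.0 ± 3.19% of the summed CPM of the 10 members in P7 libraries and 81.7 ± 2.27% in adult ones (SD, n = 5 each).

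Ratios of counts between members of the same library need no scaling factor, though they keep the GC trend, and 4 of them were set against age by exact permutation (two-sided). The 252 ways to split the libraries allow no p below 0.0079, and adjusted values are Benjamini-Hochberg values over the 4 ratios. The log2 ratio of Ikbkb to Chuk, the IKK kinases, averaged -3.32 ± 0.475 in P7 libraries and -4.37 ± 0.598 in adult ones (SD, n = 5 each), a difference of 1.05 (exact permutation p = 0.024, adjusted 0.032). P7 B, at -4.04, lay among the adult libraries. Adult G and H were lowest, at -5.06 and -4.97, while adult A, B and C were at -3.79, -4.13 and -3.91. The log2 ratio of Rela to Nfkb1, p65 to the p50 precursor, averaged 3.71 ± 0.850 in P7 libraries and 2.56 ± 0.425 in adult ones, a difference of 1.15 (exact permutation p = 0.024, adjusted 0.032; n = 5 each). P7 A and B were highest, at 4.51 and 4.72, and rested on 11 and 6 Nfkb1 counts. P7 C, E and I, at 3.13, 3.33 and 2.85, lay near adult A, at 3.20 on 10 Nfkb1 counts.

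The log2 ratio of Rela to its inhibitor Nfkbia averaged 3.25 ± 0.736 in P7 libraries and 2.07 ± 0.745 in adult ones, a difference of 1.18 (exact permutation p = 0.040, adjusted 0.040; n = 5 each). The log2 ratio of Myd88 to Traf6 was 0.949, 1.27, 0.960, 0.0700 and 2.01 in P7 A, B, C, E and I, against 2.63, 2.17, 3.35, 2.34 and 4.89 in adult A, B, C, G and H. This was the ratio of the 4 whose groups did not overlap, with a difference of -2.02 (exact permutation p = 0.0079, adjusted 0.032; n = 5 each). The highest ratios rested on few Traf6 counts, 1 in adult H and 6 in adult C. Myd88 shares exon bases with Acaa1a, so this ratio is uncertain as the values of Myd88 are. Each ratio kept its sign without 1 library in turn, but adjusted exact permutation p-values then passed 0.05 in some cases. For Myd88 to Traf6 this was so without P7 E or adult H (up to 0.0635). For Rela to Nfkb1 it was so without P7 B or E or adult B, C, G or H, and for Ikbkb to Chuk without P7 C, E or I or adult B, G or H (both up to 0.0714 by exact permutation). Rela to Nfkbia kept its call only without P7 A or adult A (up to 0.0794 by exact permutation). With the GC trend removed, an alternative chosen after seeing the data, the differences were 0.95 for Rela to Nfkb1, 0.57 for Ikbkb to Chuk and 0.98 for Rela to Nfkbia, and none of these 3 passed (exact permutation, adjusted p = 0.12 for each). The difference for Myd88 to Traf6 was then -2.33, again without overlap (exact permutation, adjusted p = 0.032).

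**Figure D3:**
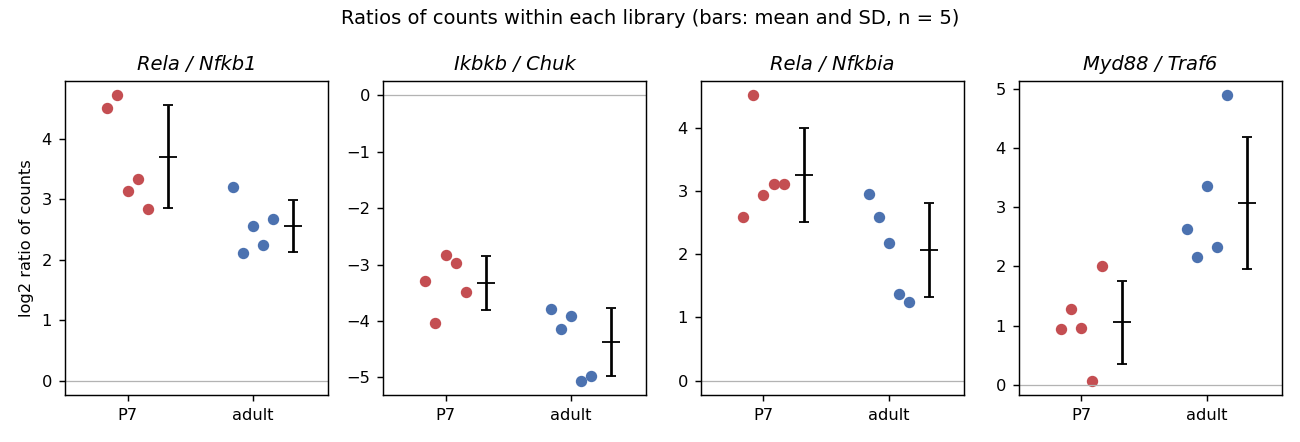
Log2 ratio of counts of 2 members within each library, P7 in red and adult in blue, with mean and SD in black (n = 5 each). Ratios of Rela to Nfkb1, Ikbkb to Chuk and Rela to Nfkbia are on average higher at P7 with overlap (0.95, 0.57 and 0.98 and not past the test with the GC trend removed), and that of Myd88 to Traf6 is lower in each P7 library than in any adult one.

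Chuk was the 1 called member that averaged 10 CPM or more over all 10 libraries (Rela averaged 7.90 CPM over them). Its pattern was set against those of other genes at such levels. Over the 10 libraries the tested genes most like Chuk, among 2691, were Fam13b, Inpp4a and Mink1, with Pearson's r of 0.934, 0.931 and 0.928 on log2 CPM. Fam13b stood at 172 CPM in P7 libraries and 318 CPM in adult libraries, Inpp4a at 53.6 CPM in P7 and 87.2 CPM in adult libraries, and Mink1 at 53.8 CPM in P7 and 84.2 CPM in adult libraries. The values share libraries and depth, and the likeness includes the age difference itself.

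Around the members, 129 further genes of the pathway had a row, of which 56 were tested, 6 rose and 11 fell at P7, together 30.4% beside 27.7% of all genes. With upper quartile scaling 10 rose and 10 fell, and with library size alone 9 rose and 10 fell. The called genes that rose had a median GC content of 57.3% and those that fell one of 43.5%. With the GC trend removed 5 rose and 10 fell.

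Subunits and inhibitors outside the 10 members were scarce, with 3 of 7 tested, 2 higher and 0 lower, where 13.8% of all genes were called higher and 13.9% lower. Nfkb2, the precursor of p52, rose by 1.38 ± 0.42 (SE, edgeR quasi-likelihood adjusted p = 0.0235), at 1.68 ± 0.562 CPM in P7 libraries and 0.637 ± 0.288 CPM in adult libraries (SD, n = 5 each). Nfkbib, which encodes IkBβ, rose by 1.40 ± 0.45 (SE, edgeR adjusted p = 0.0291). With the GC trend removed neither passed (log2 fold changes 0.97 and 1.04, edgeR quasi-likelihood adjusted p = 0.10 and 0.099). Without 1 library in turn Nfkb2 lost its call for P7 B or E or adult C, and Nfkbib for any library but P7 A and adult H (edgeR adjusted p up to 0.072 and 0.0701).

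Receptors upstream of MyD88 had few counts, with 18 genes of Toll-like and interleukin-1 receptors summing to 0.776 to 1.80 CPM in P7 libraries and 1.76 to 4.25 CPM in adult libraries. Of these genes 1 was tested, and Tlr2, Tlr5, Tlr9 and Il18r1 had 0 counts in all 10 libraries. Il1rap, a co-receptor shared by some receptors of the interleukin-1 family, had 0.121, 0.155, 0.121, 0.880 and 0.183 CPM in P7 A, B, C, E and I, against 2.34, 2.23, 1.17, 1.11 and 1.78 CPM in adult A, B, C, G and H. All P7 libraries lay below all adult ones, and Il1rap fell by 2.52 ± 0.57 on the log2 scale (SE, edgeR quasi-likelihood adjusted p = 0.00474). P7 A, B and C lay close to the limit of 3 counts in these libraries (0.127, 0.154 and 0.120 CPM), so the size of the fall is uncertain. None of 8 genes of the tumour necrosis factor receptor family passed the filter on low counts.

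Among 26 proximal adaptors and kinases 15 were tested, of which 1 rose and 2 fell, together 20% beside 27.7% of all genes tested. Tollip, an adaptor that restrains interleukin-1 and Toll-like receptor signalling, averaged 461 ± 39.2 CPM in P7 libraries and 753 ± 71.0 CPM in adult libraries (SD, n = 5 each), without overlap, and fell by 0.71 ± 0.12 (SE, edgeR quasi-likelihood adjusted p = 0.000692). Ikbke, an IKK-related kinase gene, fell by 1.11 (edgeR adjusted p = 0.017, and 0.0538 without adult A), and Peli1, a ubiquitin ligase gene, rose by 0.73 (edgeR adjusted p = 0.0431). Peli1 passed in 7 of 20 other settings and lost its call without any 1 library but P7 C (edgeR adjusted p up to 0.13). Bcl10, the adaptor that links CARD proteins to MALT1 and IKK, fell by 1.07 ± 0.16 (SE, edgeR quasi-likelihood adjusted p = 0.000315), at 122 ± 28.2 CPM in P7 libraries and 254 ± 27.5 CPM in adult libraries (SD, n = 5 each), and was the 1 called gene of 4 tested in that arm.

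Ubiquitin enzymes and negative regulators had 0 higher and 5 lower of 17 tested, where 13.8% of all genes were called higher and 13.9% lower, with a median log2 fold change of -0.29 beside 0.05 over all genes. Rnf11, which encodes a RING ligase of the A20 ubiquitin-editing complex, had 278, 242, 268, 210 and 253 CPM in P7 A, B, C, E and I, against 1602, 1285, 996, 747 and 780 CPM in adult A, B, C, G and H. No P7 library reached the adult range, and Rnf11 fell by 2.11 ± 0.20 on the log2 scale (SE, edgeR quasi-likelihood adjusted p = 1.03e-05). Cyld and Otulin, both deubiquitinase genes, fell by 1.58 and 0.69 (edgeR adjusted p = 0.000191 and 0.013), and Birc2, which encodes the ubiquitin ligase cIAP1, fell by 1.30 (edgeR adjusted p = 0.000427). Tnip3, a gene of an A20-binding inhibitor, fell by 1.51 (edgeR adjusted p = 0.00666), at 1.01 ± 0.306 CPM in P7 libraries and 2.90 ± 1.40 CPM in adult libraries (SD, n = 5 each). Rnf11, Cyld, Birc2 and Otulin passed in each of 21 other settings. Other parts of the A20 complex did not pass: Tax1bp1 had a log2 fold change of -0.04 and Itch one of -0.61 (edgeR quasi-likelihood adjusted p = 0.85 and 0.059).

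**Figure D4:**
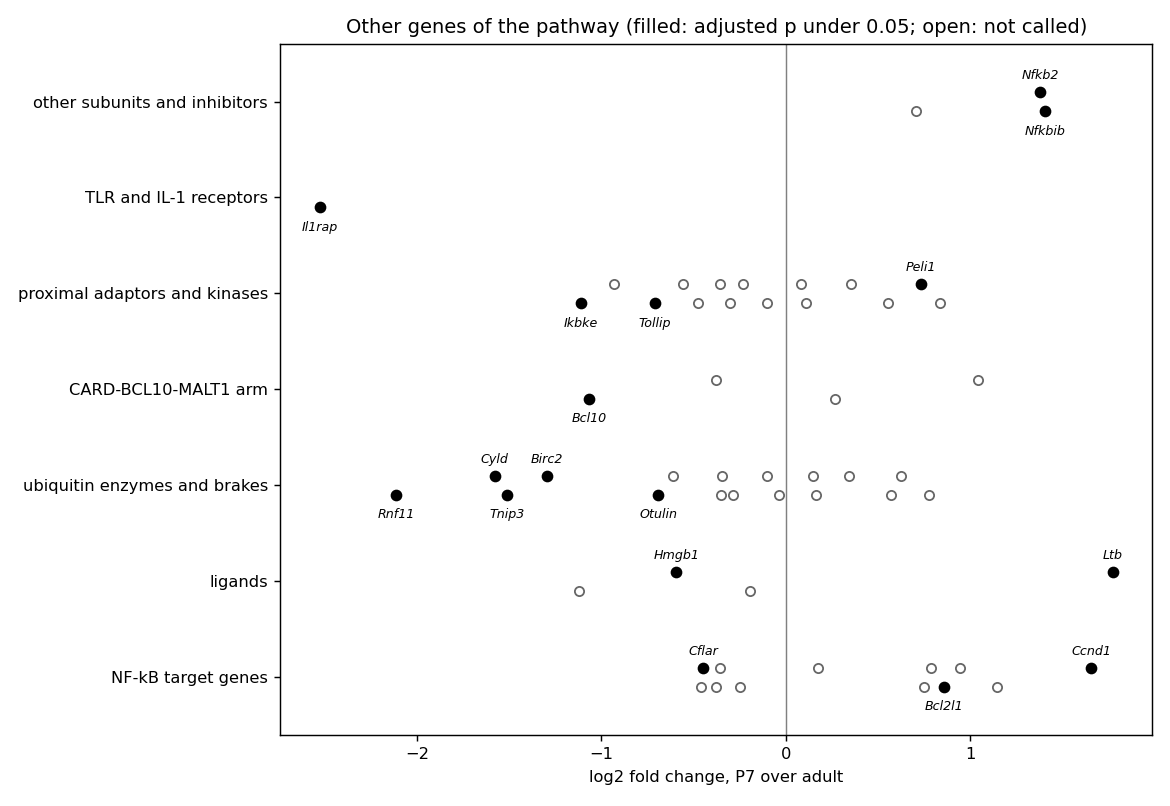
Log2 fold change, P7 over adult, of the tested genes of the pathway outside the 10 members, by role; filled points with names passed the test and open points did not (no receptor gene of the tumour necrosis factor family was tested). All 5 called of 17 tested ubiquitin enzymes and brakes lie below 0, and the 2 called of 3 tested subunit and inhibitor genes lie above 0. Over all genes tested 13.8% were called higher and 13.9% lower.

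Ligand genes had 1 higher and 1 lower of 4 tested, where 13.8% of all genes were called higher and 13.9% lower. Ltb, which encodes lymphotoxin beta, rose by 1.77 ± 0.39 (SE, edgeR quasi-likelihood adjusted p = 0.00393), at 2.92 ± 1.38 CPM in P7 libraries and 0.857 ± 0.305 CPM in adult libraries (SD, n = 5 each). Hmgb1, a nuclear protein that signals when released, fell by 0.59 (edgeR adjusted p = 0.0345) and passed in 11 of 21 other settings, losing its call without P7 A, B, C or E or adult C or H (edgeR adjusted p up to 0.0879). Among known NF-kB target genes 2 rose and 1 fell of 12 tested, together 25% beside 27.7% of all genes tested. Bcl2l1, a survival gene, and Ccnd1, which encodes cyclin D1, rose by 0.86 and 1.65 (edgeR adjusted p = 0.000757 and 0.00545), and Cflar, which encodes an inhibitor of caspase-8 activation, fell by 0.45 (edgeR adjusted p = 0.0274). Cflar passed in 12 of 21 other settings and lost its call without P7 A, B, C or E or adult H (edgeR adjusted p up to 0.0609). The inflammatory targets Cxcl1, Cxcl10 and Ptgs2 had 0 counts in all libraries.

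The platelet label was matched by 14 of 14 platelet markers passing the filter, with a summed level of 68458 to 90837 CPM at P7 and 67622 to 96621 CPM in adults. Of these 14 markers 4 rose (Itga2b, Itgb3, Gp1bb and Gp9) and 3 fell (Ppbp, Gp6 and Selp), together 50%. Log2 fold changes were 1.22 for Gp1bb, -1.57 for Ppbp and -1.55 for Selp. Beside these and the marker counts below, 13.8% of all genes tested were called higher and 13.9% lower, 27.7% in all. Neutrophil markers had 3 of 18 tested, 2 of them higher at P7 (Trem1 and Prtn3), and summed to 42.1 to 72.1 CPM at P7 and 13.5 to 36.8 CPM in adults. Nearly all of this was Trem1, at 36.4 to 68.0 CPM at P7 and 11.7 to 35.0 CPM in adults. Elane, Mpo, Ltf, Camp, Ngp, S100a8 and S100a9 each stayed below 1 CPM in every library, and Cxcr2 and Ly6g were at 0 throughout. The low levels leaned to P7. Elane, Mpo, Ltf, Camp and Ngp had counts at P7 only, with Mpo at 0.0402 to 0.563 CPM in P7 libraries. S100a8 averaged 0.584 CPM in P7 and 0.104 CPM in adult libraries, and S100a9 0.624 CPM in P7 and 0.171 CPM in adult libraries. Monocyte markers had 4 of 14 tested, 1 of them lower (Lyz2), at 2641 to 5628 CPM at P7 and 4155 to 9721 CPM in adults. That sum rested on Lyz2, averaging 2765 CPM in P7 and 4363 CPM in adult libraries, and F13a1, averaging 1135 CPM in P7 and 2166 CPM in adult libraries, and the other 12 each averaged at most 1.80 CPM at either age. Of the other cell types, lymphocyte markers had 6 of 18 tested, 1 higher (Ighm) and 1 lower (Nkg7), at 27.2 to 44.5 CPM at P7 and 25.6 to 31.8 CPM in adults. Erythroid markers had 12 of 16 tested, 3 of them higher (Car2, Fech and Sptb), at 976 to 2551 CPM at P7 and 580 to 1777 CPM in adults. Most of that sum was Hba-a1, averaging 1493 CPM in P7 and 905 CPM in adult libraries with overlap. Hba-a1 was not called (log2 fold change 0.72, edgeR adjusted p = 0.20). Of the 12 tested, 11 had a log2 fold change above 0 and 1 below 0. Their median was 1.11, beside 0.05 over all genes tested. The part of these cells in the values of the members was not tested.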

How the data were processed

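The deposited values are raw counts per gene symbol, 1 file per library, whole numbers whose total differs between libraries. Trizol RNA (1 ng) was amplified by SMARTer chemistry, and 150 pg of the cDNA was tagmented with Nextera XT and sequenced as 75 nt single-end reads, per the labels' protocols. The tools named, without their roles, are STAR 2.7.9a, fastp 0.23.1, Salmon 1.5.2, featureCounts and Subread 2.0.1, per the submitters' processing notes. The sources used here do not give build, annotation or strand setting, and there are no molecular identifiers, so intervals and limits from counts cover counting error only.

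Genes were kept by filterByExpr (minimum count 10, minimum total 15), which left 8198 of 53819, scaled by TMM and tested with edgeR 4.0.16 (quasi-likelihood, robust, age as the only term; R 4.3.3). Alternatives used other scalings, DESeq2 1.42.0, limma-voom (limma 3.58.1), other filters, a GC trend removed per library (GC content known for 97.9% of genes tested), each library left out, the GC trend removed from ratios (chosen after seeing the data), and letters A to C with and without a block. Scripts were tested on simulated data. Length and GC content came from GENCODE M21. Log2 CPM used a prior count of 2 and ratios a pseudocount of 0.5. The 3 shared letters gave no sign of pairing between libraries, and the closing section gives the values.

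The members and lists were chosen with earlier results of these data known. Named genes were the members and, of each pathway list, up to 6 called genes by smallest p (the 2 most abundant where none was called); Itch and Tax1bp1, listed genes that did not pass, were named after their values were seen, as were listed genes at 0 counts, called markers and overlapping genes. The list entry Skp1a had no row.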

Additional observations from a re-analysis of the deposited data

Results flagged for a closer look

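In 5 cases 1 library stood apart from the other 4 of its age by a gap of over 0.71 of the group's range, the 95% critical value of Dixon's test for 5 samples. Such a gap is reached by chance in about 5% of groups, and 62 groups were examined. Among ratios of members, the log2 ratio of Rela to Nfkbia was 4.52 in P7 B, where Nfkbia was lowest. In the other pathway genes, Il1rap stood at 0.880 CPM in P7 E, Birc2 at 573 CPM in P7 I, Nfkbib at 1.32 CPM in adult H and Tnip3 at 5.34 CPM in adult H.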

How the results depend on the processing

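Rela rose under each of 21 alternatives (log2 fold change 0.70 to 1.21). Members called higher numbered 2, with Traf6, against 1 with library size only, upper quartile scaling, DESeq2, no filter on low counts and the GC trend removed, and 1 to 2 without 1 library in turn. Members called lower numbered 2 without the filter (Tnfaip3 added), and 0 with the GC trend removed and with letters A to C fitted with or without the block, where 6 libraries remain. Other pathway genes called higher numbered 10 with upper quartile scaling, 1 with the block and 3 to 6 without 1 library (3 without P7 E or adult C), against 6, and those called lower 7 with at least 5 CPM in 5 libraries, where fewer genes are tested, against 11. Over all genes 660 were higher and 756 lower with the block, against 1132 and 1140, and 756 were lower with the filter of 5 CPM. The letters gave no sign of pairing libraries (correlations of deviations -0.0378 to 0.0649 for the same letter, -0.0962 to 0.111 for different letters). With 3 same-letter pairs beside 22 others, this cannot settle whether libraries were paired. Mean paired differences over letters A to C, whose smallest exact p is 0.25, were 1.497 for Rela to Nfkb1, 0.56 for Ikbkb to Chuk, 0.77 for Rela to Nfkbia and -1.66 for Myd88 to Traf6. The differences over all libraries, left out 1 at a time, were 0.90 to 1.36, 0.88 to 1.23, 0.87 to 1.40 and -2.26 to -1.57 in the same order, and with the GC trend removed 0.95, 0.57, 0.98 and -2.33, past the test for Myd88 to Traf6 alone. Tnip3, Ltb and Ccnd1 lost their calls with the block (edgeR adjusted p = 0.0939, 0.0832 and 0.0854), and Tnip3 and Ccnd1 also for letters A to C without it (0.0622 and 0.0643). Signs turned for members that did not pass. Relb was at -0.31 with the GC trend removed. Nfkb1 was at -0.00859 in limma-voom, -0.0573 with the GC trend removed, -0.26 with the block, -0.10 for the same letters without it, and -0.16 to 0.36 without 1 library. Nfkbia was at 0.0216 in limma-voom, 0.49 with the block, 0.67 without it, and -0.45 to 0.0866 without 1 library, and Ikbkg at -0.22, -0.24 and -0.0405 to 0.27 in the last 3. The cause of these turns was not tested. Depth limits Tnfaip3, Traf6 and Nfkb1, the members with the fewest counts.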
